A study of Rattus norvegicus with 2 samples.

Results

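The solute carriers are the membrane proteins that move small molecules across cell membranes by facilitated diffusion, exchange or coupling to an ion gradient. Their expression was compared here in rat endothelial cells of 2 origins grown in culture, aortic and endocardial. The endocardium is the inner lining of the heart. Members were the probe sets of the array whose platform annotation gave exactly 1 gene symbol beginning with Slc and a number, with the glucose transporter Slc2a1 and the lactate transporters Slc16a1 and Slc16a3 left out. This rule used no measured value and gave 117 genes with 176 probe sets, of 4736 genes and 8740 probe sets in all. Cells of both origins came from the same 2 rats, were pooled by origin, and were passaged 2 times in conditions kept closely matched. Neither genotype, strain, age nor any treatment is given in the labels. Total RNA from each pool was hybridised to 1 Affymetrix rat U34A array. The 2 groups thus had 1 array each, without replicates, and no test was made. In such pools, fewer cells of a type and less RNA per cell cannot be told apart.

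Endothelium depends on solute carriers in several ways. The heavy chain Slc3a2 pairs with light chains such as Slc7a5 to exchange large neutral amino acids, and cationic amino acid transporters such as Slc7a1 bring in arginine, the substrate of nitric oxide synthase. The equilibrative transporter Slc29a1 clears adenosine, a vasodilator, from the blood. Members of the Slc25 family sit in the inner mitochondrial membrane and pass phosphate, adenine nucleotides and metabolites across it, while many Slc22, Slc34 and Slc13 members are best known from kidney and liver epithelium.

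Of the 117 transporters, Slc6a6, the sodium- and chloride-coupled taurine transporter, was the 1 member whose difference exceeded 2-fold even against the highest background control on the arrays. Slc40a1, the iron exporter ferroportin, was the other member that lay under the floor used here (635.4, the median of all intensities) on the aortic array and above that control on the endocardial array. The 250 bases before the RefSeq start of these 2 genes are shown because they are the members with the clearest one-sided signal. They were searched for TGGAAA, the core of the tonicity-responsive element bound by Nfat5, since taurine is an osmolyte, and for ACGTG, the core of the hypoxia response element, on both strands; the 2 motifs do not overlap each other in these stretches. Capitals mark the match, and sequences run from 5′ to 3′ on the gene's strand. They come from RefSeq, build GRCr8, at chr4:125752252-125752501 on the plus strand for Slc6a6 and at chr9:55543461-55543710 on the minus strand for Slc40a1.
Slc6a6: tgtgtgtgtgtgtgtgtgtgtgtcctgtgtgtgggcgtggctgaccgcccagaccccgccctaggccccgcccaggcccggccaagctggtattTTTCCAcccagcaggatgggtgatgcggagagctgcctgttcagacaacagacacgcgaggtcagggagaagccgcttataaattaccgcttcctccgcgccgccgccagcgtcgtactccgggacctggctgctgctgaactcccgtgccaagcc
Slc40a1: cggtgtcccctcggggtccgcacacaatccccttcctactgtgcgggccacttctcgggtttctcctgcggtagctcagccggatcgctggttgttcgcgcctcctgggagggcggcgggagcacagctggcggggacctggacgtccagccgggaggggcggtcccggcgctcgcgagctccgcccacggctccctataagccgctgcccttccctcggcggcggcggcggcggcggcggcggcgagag

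The stretch of Slc6a6 held 1 match, TTTCCA, the reverse complement of TGGAAA, with its first base at -156 from the start. That of Slc40a1 held neither motif in these 250 bases. TGGAAA on either strand was found in 11 of 109 transporter promoters with a sequence (10.1%) and in 6592 of 33469 promoters of all genes (19.7%). ACGTG was found in 31 of the 109 (28.4%) and in 5547 of the 33469 (16.6%). A match of letters is a description of the sequence and not a binding site.

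The arrays set the limits of what can be read. Intensities are on a linear scale and were at or below 0 for 25.8% of aortic and 24.3% of endocardial probe sets. A floor was set at their pooled median, 635.4, and a probe set was kept when it lay above the floor on at least 1 array. Of 38 control probe sets that should find no target, 7 exceeded the floor in the aortic and 6 in the endocardial data, the highest at 1742.4; this value is called the highest control below, and a fold is printed only where 1 array exceeds it. Where the dimmer array does not exceed it, the fold is a lower bound taken against it. Pairs of intensities are given below as aortic, then endocardial, and "brighter" or "dimmer" describes the endocardial value. The 9 probe sets for RNAs spiked into the hybridisation had log2 ratios, endocardial over aortic, from -0.25 to 0.36 with an SD of 0.17. These RNAs were not part of the culture, pooling or RNA preparation, so their range does not measure the spread between pools. Log2 ratios of probe sets of the same gene differed with a pooled SD of 0.39 over 625 genes, and of 0.41 over the 11 transporters that allowed it. The number of arrays limits the precision of every value.

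Of the pan-endothelial genes checked against the label, 8 of 12 had a probe set of their own. Pecam1, Vwf, Kdr and Icam2 lay under the floor on both arrays, while the angiotensin-converting enzyme Ace, Flt1, Nos3 and Thbd were measured, with a median log2 ratio of -0.26. Ace, at 2296.8 and 1027.7, was the 1 of these 4 past 2-fold, and was at least 1.32-fold dimmer against the highest control. Most smooth muscle and fibroblast genes were bright on both arrays, whereas Des was under the floor on both and Pdgfrb (949.7 and 104.0) under the highest control. Summed over their probe sets, smooth muscle genes had 296844 and 400572, aortic then endocardial, and fibroblast genes had 993115 and 796027. Single genes moved further and both ways: Dcn had 22310.9 and 1728.6 on its brightest probe set, at least 12.8-fold dimmer, Lox had 74126.1 and 30883.4, 2.40-fold dimmer, and Postn had 2026.3 and 15939.7, 7.87-fold brighter. Myh11 had 2532.8 and 614.2, at least 1.45-fold dimmer, while the summed smooth muscle intensity was higher. Of 18 macrophage and leukocyte genes checked, 12 had a probe set of their own, and Csf1r and Itgam lay under the floor on both arrays. Macrophage and leukocyte genes summed to 14649 and 70581. Of the 10 measured, 7 were brighter and 0 dimmer on the endocardial array by 2-fold or more, against 5.93% and 4.16% of all 2935 measured genes. Of the 7, Lyz2, Mmp12, Ctss, Cd53, Fcgr2b and RT1-Da were under the floor on the aortic array, so that their ratio could only be positive. With the floor at the highest control, 2 of 8 were brighter by as much, against 3.99% of all 1904 genes. The lysozyme gene Lyz2 alone accounted for 33619.5 of the endocardial sum, and the pan-leukocyte gene Ptprc was under the highest control on both arrays. Of the 6 measured cardiomyocyte genes, 1 passed 2-fold, Myh6, which was dimmer on the endocardial array but under the highest control on both (1589.2 and 569.4). With the floor at that control, 2 were measured and 0 passed 2-fold.

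Signal above the floor was spread unevenly over the substrate classes. Above the floor on at least 1 array lay 67 of 117 genes (57.3%), against 2935 of 4736 genes on the array (62%). Above the highest control on at least 1 array lay 42 of them (35.9%), against 1904 of all genes (40.2%). The other 50 transporters, with 64 probe sets, lay under the floor on both arrays. Among classes with 9 or more genes, mitochondrial carriers were measured most fully, with 9 of 12 genes above the floor and 8 above the highest control. Of 34 ion transporters 20 were above the floor and 11 above that control, and of 13 amino acid and peptide transporters 7 and 4. Of the class of neurotransmitter, taurine and creatine transporters, 8 of 19 were above the floor and 4 above the highest control. Classes were assigned from gene symbols. The ion class thus holds Slc44a4 of the choline transporter family, under the floor on both arrays. The neurotransmitter class holds all 14 Slc6 members, including amino acid transporters such as Slc6a18 and Slc6a20a, also under the floor on both arrays. All 4 monocarboxylate transporters left in the list (Slc16a6, Slc16a7, Slc16a8 and Slc16a12), all 3 sodium/proton exchangers on the array (Slc9a2, Slc9a3 and Slc9a4) and all 3 Slc13 sulphate and dicarboxylate transporters were under the floor on both arrays. Of the 4 Slc1 glutamate transporters only Slc1a3 was above it, and only on the aortic array.

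**Figure D1:**
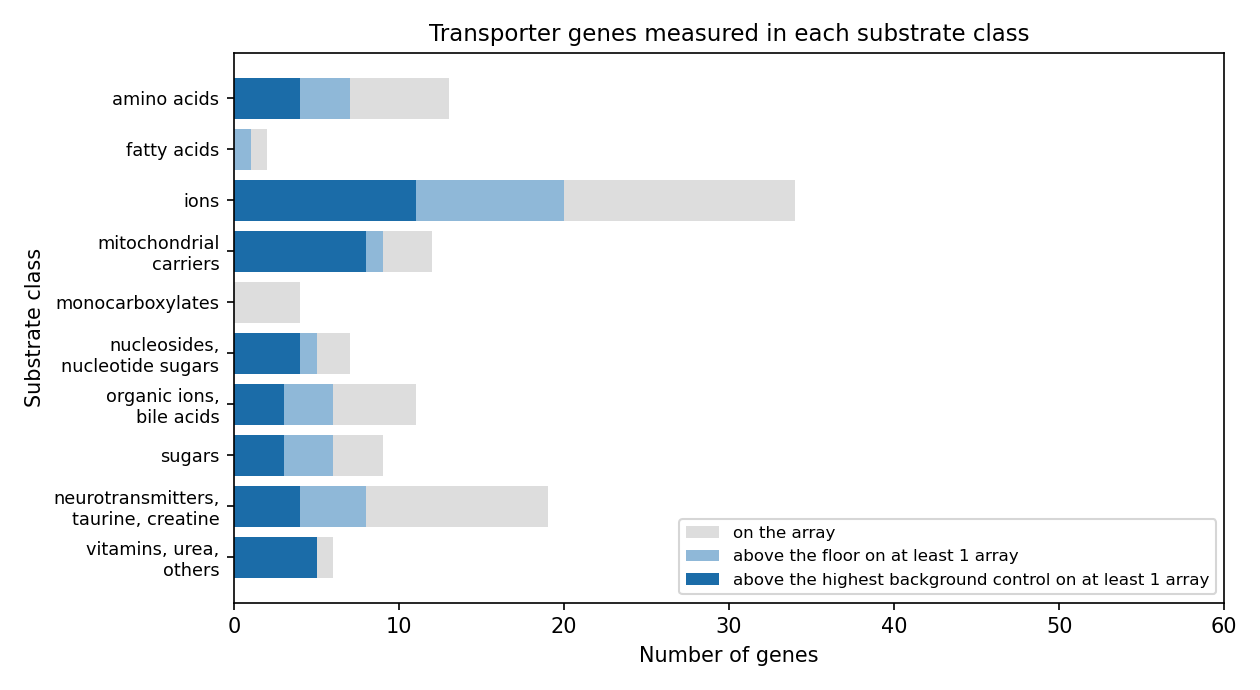
Number of transporter genes in each substrate class that are on the array (grey), above the floor of 635.4 on at least 1 array (light blue) and above the highest control of 1742.4 on at least 1 array (dark blue), bars drawn over one another from 0. Mitochondrial carriers reach 8 of 12 above the highest control and monocarboxylate transporters 0 of 4.

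The comparison asked which transporters differ between aortic and endocardial endothelium in matched culture. Most transporters with values clear of background had similar intensities on the 2 arrays. Every kept probe set exceeded the highest control on both arrays for 24 transporters, of which 0 differed 2-fold, 12 had a log2 ratio above 0 and 12 below, and the range ran from -0.53 (Slc14a1) to 0.93 (Slc25a1). Among the 1250 genes of the whole array under this condition, 2.4% were higher and 1.76% lower by 2-fold or more. The condition leaves out transporters above the highest control on 1 array only, such as Slc6a6 and Slc40a1. Of these 24, 17 (70.8%) had a log2 ratio within 0.25 of 0, against 53.3% of the 1250 genes of the whole array that met the same condition. The SD of the log2 ratio was 0.31 over the 24 transporters and 0.46 over the 1250 genes. Whether transporters differ from other genes in this was not tested.

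Over all 67 measured transporters, 5 were higher on the endocardial array by 2-fold or more (7.46%, against 5.93% of all 2935 measured genes) and 2 were lower by as much (2.99%, against 4.16%). The other 60 lay between, and the median log2 ratio was -0.02 for the transporters and -0.02 for all genes. The 5 higher genes were Slc6a6, Slc40a1, the potassium chloride cotransporter Slc12a7, the phosphate transporter Slc20a2 and the fatty acid transport protein Slc27a1. The 2 lower genes were the nucleoside transporter Slc28a1 and the organic anion transporter Slc22a6. These shares lie near those of all genes. All 5 higher genes were among the 7 transporters above the floor on the endocardial array only, so that their ratio could only be positive. Of the 2 lower genes, Slc28a1 was among the 9 transporters above the floor on the aortic array only, so that its ratio could only be negative. Slc12a7, Slc20a2, Slc27a1 and Slc28a1 did not exceed the highest control on either array. With the floor raised to that control, 42 transporters were measured, of which 1 was at least 2-fold higher (2.38%, against 3.99% of 1904 genes) and 0 were lower (0%, against 2.36%).

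**Figure D2:**
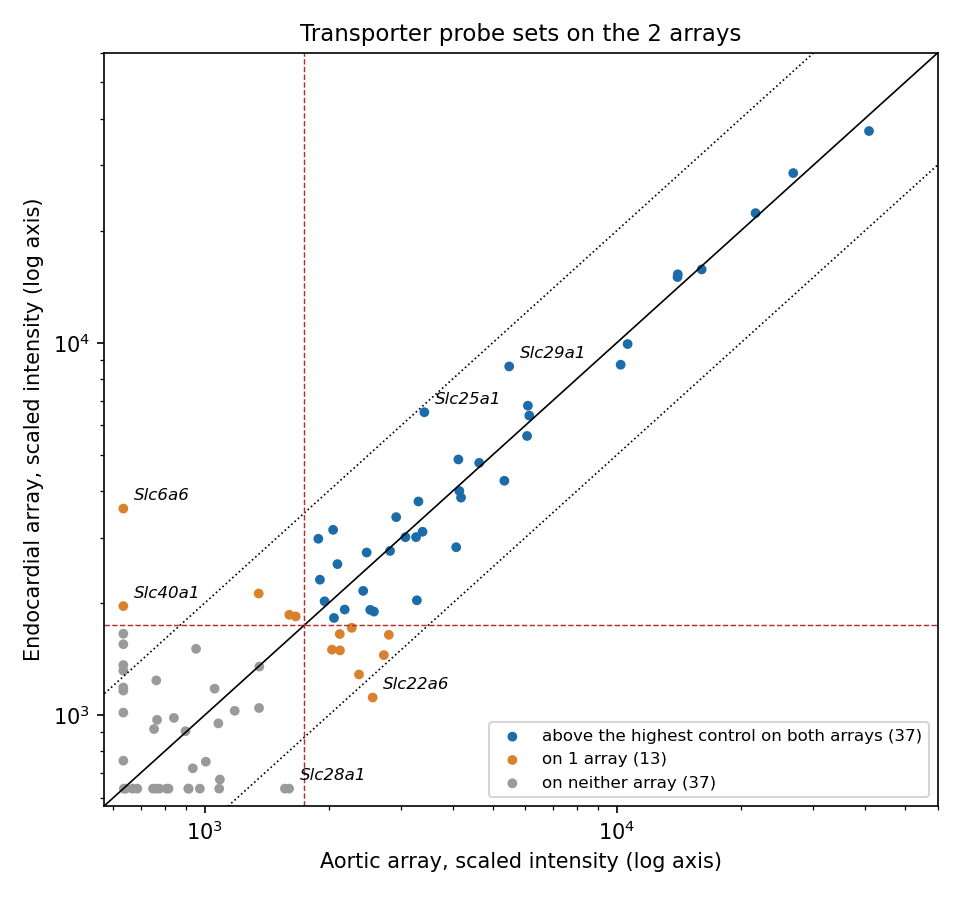
Scaled intensity of each of the 87 kept transporter probe sets on the aortic (x) and endocardial (y) array, both axes logarithmic, with values under the floor drawn at the floor of 635.4. The solid line marks equal intensity, dotted lines 2-fold, and dashed red lines the highest control of 1742.4; the 37 blue probe sets above it on both arrays stay within the dotted lines, and Slc6a6 (446.5 and 3589.4 before the floor) lies above them.

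Slc6a6 belongs to the Slc6 family of sodium- and chloride-dependent transporters, which also carries creatine and neurotransmitters. Its single probe set had intensities of 446.5 and 3589.4, at least 2.06-fold brighter. The aortic value was below the floor and the endocardial value was above every background control. Slc6a8, the creatine transporter, had 2101.0 and 2546.1 (log2 ratio 0.28), a difference within the range of the spiked RNAs. The GABA transporter Slc6a11 had 2128.7 and 1652.5, at least 1.22-fold dimmer. Slc18a3, which loads acetylcholine into vesicles, had probe sets of opposite sign, with 2524.1 and 1919.0 on one (log2 ratio -0.40) and both values under the highest control on the other (754.3 and 918.4). The transporters of noradrenaline (Slc6a2), dopamine (Slc6a3), serotonin (Slc6a4) and glycine (Slc6a5) exceeded the floor but not the highest control, with their highest intensity at 936.5. The 7 other Slc6 members were under the floor on both arrays. Over the 8 measured genes of the class, 1 was at least 2-fold higher and 0 lower.

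Ion transporters, the largest class with 20 of the 67 measured genes, held 3 of the 5 higher genes. These 3 were kept through their endocardial values alone, which left no room for a negative ratio. With the floor at the highest control, Slc40a1 had a log2 ratio of 0.17, while Slc12a7 and Slc20a2 had no value. Ferroportin, Slc40a1, which exports iron and is abundant in macrophages, had 262.8 and 1964.3 for 1 probe set and 383.9 and 1655.8 for the other. Both probe sets were thus higher on the endocardial array, the first at least 1.13-fold against the highest control and the second under that control on both arrays. Of the 10 measured macrophage and leukocyte genes, 7 moved the same way by 2-fold or more, and 2 of 8 with the floor at the highest control. Ptprc (log2 ratio -0.09) and RT1-Db1 (0.05) were near equal. The part of such genes in the difference of Slc40a1 was not tested. Slc12a7 had -76.3 and 1551.5, and Slc20a2 had 287.5 and 1364.1. Neither exceeded the highest control, so no fold is given. The other iron transporter, Slc11a2, which imports ferrous iron, had 2818.8 and 2762.2 for 1 probe set (log2 ratio -0.03) and 1356.2 and 1046.1 for another, under the highest control. The other measured metal transporters had lower values on the endocardial array, some by very little. The magnesium transporter Slc41a3 had 3259.2 and 3008.7 (-0.12 in log2 ratio), Slc41a2 had 2130.7 and 1493.4, at least 1.22-fold dimmer, and the zinc exporter Slc30a1 had 1089.5 and 672.4, under the highest control. The zinc transporters Slc30a2 (637.4 and 611.2) and Slc30a4 (1358.2 and 1351.4) were also under it.

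The brightest bicarbonate transporters had near equal values, whereas chloride cotransporters had probe sets that disagreed. The anion exchanger Slc4a2 had 4638.3 and 4760.6 (log2 ratio 0.04), and the sodium bicarbonate cotransporter Slc4a7 had 3379.7 and 3110.2 (-0.12). Slc4a1, the anion exchanger of red cells, had 3072.1 and 3007.5 on its brightest probe set (-0.03), while its 2 others, under the highest control, had log2 ratios of -0.62 and -0.35, giving a gene value of -0.35. Slc4a4 had 750.0 and 444.7, under the highest control. Slc4a3 had 1606.1 and 1861.2, at least 1.07-fold brighter. The potassium chloride cotransporter Slc12a4 shows how far probe sets of one gene can part: 1 had 2051.0 and 3147.2 (0.62) and the other 3274.4 and 2035.4 (-0.69), all 4 values above the highest control. Its gene value of -0.03 is therefore a median of opposite readings. The sodium, potassium and chloride cotransporter Slc12a2 also had probe sets of opposite sign, all of them under the highest control. The sodium calcium exchanger Slc8a1 had 6087.9 and 6780.3 on its brightest probe set (0.16) and 1183.6 and 1028.0 on its other kept one (-0.20), and the kidney phosphate transporter Slc34a1 had 3 kept probe sets of mixed sign, at 1353.4 and 2122.8, at least 1.22-fold brighter, at 1664.2 and 1842.7, and at 914.8 and 526.3, with 2 more under the floor on both arrays and a gene value of 0.15. Over the 20 measured ion transporters the median log2 ratio was -0.02, with 17 between the 2-fold bounds.

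Mitochondrial carriers of phosphate and adenine nucleotides were near equal, while the citrate and dicarboxylate carriers were brighter on the endocardial array. The citrate carrier Slc25a1, which exports citrate to the cytosol for lipid synthesis, had 3414.6 and 6510.6, 1.91-fold brighter and above the highest control on both. This was the largest ratio among the 24 transporters with every kept probe set above the highest control on both arrays. It lay outside the range of the spiked RNAs, which does not measure the spread between pools. The adenine nucleotide translocators stood at 40925.6 and 37039.6 (Slc25a4, log2 ratio -0.14) and at 21716.0 and 22298.8 (Slc25a5, 0.04). The phosphate carrier Slc25a3 had 26803.0 and 28561.6 (0.09). These 3 carriers, which bring phosphate and ADP to ATP synthase and export the ATP it makes, thus stayed within the range of the spiked RNAs. The oxoglutarate and malate carrier Slc25a11 had 2 probe sets with log2 ratios of -0.05 and -0.13. The dicarboxylate carrier Slc25a10 had 1888.3 and 2978.1 on its brightest probe set, 1.58-fold brighter. Its other kept probe set had 244.7 and 755.2, under the highest control, and the gene value was 0.45. The carnitine and acylcarnitine carrier Slc25a20 had 763.7 and 1240.9, under the highest control. Slc25a17, the member of the family found in peroxisomes, had 4128.8 and 4862.7 (0.24), and Slc25a30 had 2275.9 and 1717.1, at least 1.31-fold dimmer. Of the 9 measured carriers 6 had a log2 ratio above 0 and 3 below, 0 passed 2-fold in either direction, and the median was 0.09.

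**Figure D3:**
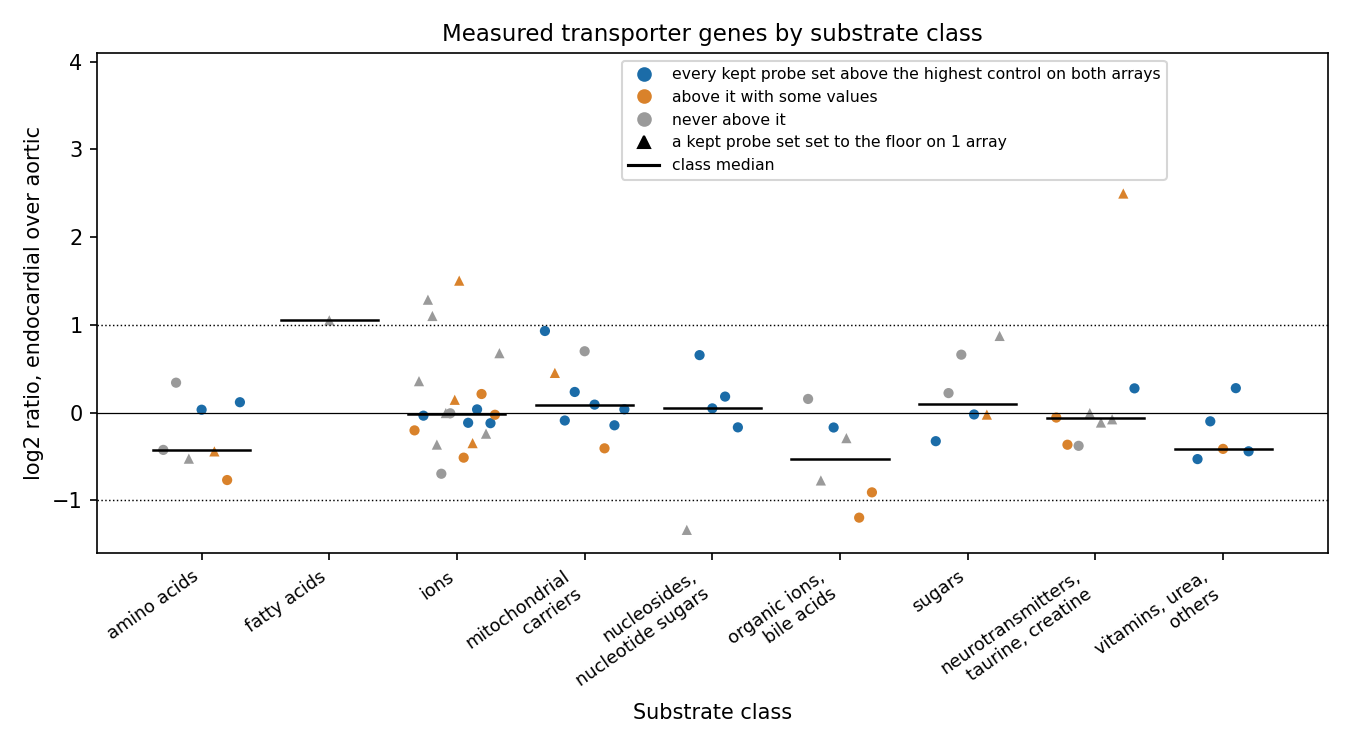
Log2 ratio, endocardial over aortic, of the 67 measured transporter genes by substrate class, each point the median over a gene's kept probe sets and each short line the class median. Blue genes exceed the highest control on both arrays with every kept probe set and lie between -0.53 and 0.93, and the points beyond the dotted 2-fold lines are grey or orange, most of them triangles that rest on the floor on 1 array.

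Amino acid transporters showed near equal intensities for the neutral amino acid exchanger and lower endocardial values for the measured cationic ones, Slc7a1 and Slc7a2. The heavy chain Slc3a2 had 14042.4 and 15019.7 on 1 probe set (log2 ratio 0.10) and 16071.9 and 15742.9 on the other (-0.03), and its partner Slc7a5 had 14063.9 and 15274.9 (0.12). Both parts of the exchanger thus lay within the range of the spiked RNAs. Slc7a1, the main arginine transporter, had 3 probe sets, at 2060.9 and 1825.7, at 2037.7 and 1500.6, and at 1567.0 and 452.1. All 3 were lower on the endocardial array, by 1.13-fold, by at least 1.17-fold, and with both values under the highest control for the last, the first of these being within the range of the spiked RNAs. Slc7a2, a second cationic amino acid transporter, had 2799.9 and 1644.3, at least 1.61-fold dimmer, on its single probe set. Slc7a3, of the same kind, was under the floor on both arrays. The nitric oxide synthase Nos3, which uses arginine, had 4 kept probe sets with a median log2 ratio of -0.06, of which 1 exceeded the highest control, on the aortic array. The peptide transporters Slc15a1 and Slc15a4 and the glutamate transporter Slc1a3 did not exceed the highest control. The class median was -0.42 over 7 genes, 0 of them past 2-fold, and it was -0.08 over the genes measured with the floor at the highest control.

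Of the equilibrative nucleoside transporters, Slc29a1 was brighter on the endocardial array and Slc29a2 near equal. Slc29a1, which takes up adenosine, had 5483.9 and 8641.6, 1.58-fold brighter. Its relative Slc29a2 had 1955.7 and 2023.3 (log2 ratio 0.05). The concentrative transporter Slc28a1 had 1603.9 and 330.8, under the highest control on both arrays, and Slc28a2 was under the floor. The transporter of CMP-sialic acid into the Golgi, Slc35a1, had 3303.0 and 3750.5 (0.18), and Slc35b1 of the endoplasmic reticulum had probe sets with log2 ratios of -0.11 and -0.23.

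Sugar transporters other than the one left out showed no 2-fold difference. Slc2a3, a glucose transporter of high affinity, had 5338.6 and 4262.1, 1.25-fold dimmer, on 1 of its 2 probe sets; the other was under the floor on both arrays. The glucose 6-phosphate transporter Slc37a4 had 2 probe sets with log2 ratios of -0.19 and 0.15, and the sodium glucose cotransporter Slc5a1 had 2917.4 and 3404.4 on its brightest (0.22) and 764.6 and 566.0 on its other (-0.27). The insulin-regulated transporter Slc2a4 (842.8 and 983.8), the fructose transporter Slc2a5 (953.7 and 1508.1) and the myo-inositol transporter Slc5a3 (-27.8 and 1165.0) were under the highest control on both arrays. Slc5a3 carries an osmolyte as Slc6a6 does, and its intensity was likewise under the floor on the aortic array only, but at a level that background controls also reached.

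The only measured fatty acid transporter, Slc27a1, had 496.6 and 1318.2, both under the highest control, and Slc27a2 was under the floor. Organic ion transporters had the lowest class median, -0.53 over 6 genes, with 5 of 6 lower on the endocardial array, against 1535 of 2935 among all measured genes. Of these 5, Slc22a13 (1085.5 and 630.6) and the carnitine transporter Slc22a5 (776.9 and 414.1) passed the floor on the aortic array only, so that their ratio could only be negative. The organic anion transporter Slc22a6, known from the kidney, had 2558.4 and 1116.2, at least 1.47-fold dimmer, and Slc22a7 had 2722.7 and 1450.6, at least 1.56-fold dimmer, with a further probe set under the floor on both arrays. Slc22a18 was above the highest control on both arrays and had 2426.2 and 2157.9 (log2 ratio -0.17). Slc22a13, Slc22a5 and the bile acid transporter Slc10a2 did not exceed the highest control.

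Among the remaining carriers, the urea transporter Slc14a1, found in red cells and in endothelium of the renal medulla, had 4078.7 and 2826.4, 1.44-fold dimmer. Slc14a2, the urea transporter of kidney tubules, had 10627.2 and 9924.6 (log2 ratio -0.10). Each of these 2 urea transporters had a further probe set under the floor on both arrays. The vitamin transporter Slc5a6 had 2576.1 and 1898.4, 1.36-fold dimmer. The folate carrier Slc19a1 had 2 probe sets of opposite sign, at 6136.2 and 6377.4 (0.06) and at 2370.2 and 1286.8, at least 1.36-fold lower. Slc23a3 had 1905.2 and 2312.4, 1.21-fold brighter. The class median was -0.41 over 5 genes, with 0 past 2-fold.

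Most transporters rested on few probe sets. Of the 67 measured genes, 50 had 1 kept probe set, and of the 17 with several, 10 had probe sets of opposite sign. Slc12a4 and Slc19a1, given above, were among these 10. Another probe set lay under the floor on both arrays for 11 transporters that exceeded the highest control, among them Slc25a10, Slc5a6, Slc35a1, Slc4a2 and Slc8a1. Ratios such as those of Slc6a6, Slc25a1 and Slc29a1 have no second probe set on the array to be set against.

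Other membrane transporters were counted in the same way. Of 100 genes for ABC transporters, organic anion transporting polypeptides, aquaporins, cation pumps, potassium and chloride channels, porins and monocarboxylate transporter partners, 43 were measured, of which 2 were brighter and 3 dimmer by 2-fold or more, and the median log2 ratio was -0.22. Among all 2935 measured genes 5.93% were brighter and 4.16% dimmer by as much. With the floor at the highest control, 17 were measured, of which 2 were brighter and 0 dimmer by 2-fold or more, against 3.99% and 2.36% of all genes. The 2 higher genes were the sodium pump subunit Atp1b1, part of the pump that maintains the sodium gradient used by carriers such as Slc6a6, and the multidrug transporter Abcb1b. Atp1b1 had 1785.1 and 9300.0 on 1 probe set, 5.21-fold brighter, 258.0 and 2659.1 on a second, at least 1.53-fold higher, and had another under the floor on both arrays. The other sodium pump subunits in the list were not higher. Atp1b3 had 18480.7 and 18133.9 (log2 ratio -0.03). Atp1b2 had a gene value of -0.27 and was under the highest control on both arrays, and Atp1a4 was under the floor on both. Abcb1b had 955.1 and 4220.0, at least 2.42-fold higher. The 3 lower genes were the potassium channel genes Kcnc4, Kcnh5 and Kcnj15, all under the highest control on both arrays. All 3 passed the floor on the aortic array only, so that their ratio could only be negative. Bsg and Emb, the membrane partners of monocarboxylate transporters, had log2 ratios of -0.54 and -0.25.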

How the data were processed

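Each group was 1 array of 1 pool, the groups taken from the source named in the labels. The authors deposited 1 linear intensity per probe set and array; how probes were summarised is not given in the sources used. The 59 control probe sets were left out. The 8740 others were scaled to a shared mean after trimming 2% at each end (factors 1.001 aortic, 0.9994 endocardial). Probe sets at or under the median, 635.4, on both arrays were dropped and lower values set to it. A gene's value is the median log2 ratio of its kept probe sets. Genes came from the platform annotation: 7006 probe sets had 1 symbol, 308 several and 1426 none; 2 probe sets naming a solute carrier beside another symbol were not used. All 117 members matched RefSeq by gene identifier, and 109 had a promoter sequence. With 1 array per group no test was made; genes were counted at 2-fold. Named genes exceeded the highest background control, passed 2-fold, or were the highest or lowest of their substrate class; a few others were named after their values were seen. Members, classes and lists were chosen with earlier results of these data known. Counting was checked on simulated data in which 200 bright genes were changed by more than 2-fold. That check does not cover dim genes or changes near 2-fold. Alternatives changed the scaling, floor and choice of probe set. Computing used Python 3.11.15, numpy 2.4.6, pandas 2.3.3 and statsmodels 0.14.6.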

Additional observations from a re-analysis of the deposited data

How the results depend on the processing

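The counts of 5 higher and 2 lower transporters, with the same genes, held without rescaling, with quantile normalization, with centring, with loess and with the brightest probe set; probe sets counted singly gave 6 higher and 3 lower. They depended on the floor. Raising the floor to the highest control left 1 higher (Slc6a6) and 0 lower, raising it to the 75th percentile (2576.1) left 0 and 0, and without a floor 7 were higher and 6 lower. Over all genes those 3 settings gave 76 and 45, 45 and 40, and 342 and 410. The median log2 ratio of all transporters stayed between -0.12 and 0.04. Class medians moved by more than the SD of the spiked RNAs as follows: amino acids to 0.034 (75th percentile), -0.083 (highest control) and -0.17 (brightest probe set); organic ions to -0.080 (75th percentile) and -0.78 (no floor); the neurotransmitter class to 0.48 and -0.39 in those settings; vitamins and others to -0.10, -0.19 and -0.10 (75th percentile, highest control, brightest probe set); fatty acids to 1.41 (no floor). A higher floor leaves fewer genes and pulls ratios of dim ones toward 0. With the floor at the 75th percentile, the organic ion value was that of Slc22a7 alone and the neurotransmitter value that of Slc6a6 alone. Of 374 values of 51 named genes under the alternatives, 43 moved by more than that SD. Of the genes at least 2-fold different, 0 changed sign, which a change of floor could not bring about for a gene with 1 probe set. Slc12a7, Slc20a2, Slc27a1 and Slc28a1 had no value with either raised floor. Genes with smaller ratios did change sign: with the floor at the 75th percentile, Slc19a1 went from -0.41 to 0.056 and Slc5a1 from -0.022 to 0.22. No paired analysis was possible because each group had 1 array.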

Other observations

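Several transporters had 1 probe set above the highest background control and another under the floor on both arrays: 11 of the 22 transporters that had a probe set above that control and at least 1 other. Slc14a2 had 10627.2 and 9924.6 on 1 probe set and 0.4 and -53.3 on the other, Slc2a3 had 5338.6 and 4262.1 against -1271.8 and -983.9, and Slc14a1 had 4078.7 and 2826.4 against 27.8 and -51.3. Slc22a7, lower on the endocardial array on 1 probe set, had 368.3 and 506.0 on the other. Whether the bright or the dark probe set reports the transcript was not tested.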
